A study of Mus musculus with 2 samples.

Results

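The interleukin-6 (IL-6) family was followed through single cells of mouse pancreatic tumours as a set of 10 genes. They were taken by symbol from the 32285 genes listed in both deposited matrices, and all 10 were found. The set held the cytokine genes Il6, Lif, Osm and Il11, the receptor chain genes Il6ra, Il6st, Osmr and Lifr, the feedback inhibitor Socs3 and the transcription factor Stat3. The tumours came from KPPC mice, a genetically engineered model of pancreatic ductal cancer whose alleles the labels do not spell out. Animals aged 6 weeks were given either vehicle or 50 mg/kg takinib over 14 days, and each treatment has 1 droplet library; how many animals, and of which sex, went into either library is not given. Takinib blocks TAK1, a kinase that relays inflammatory receptor signals towards NF-kB and AP-1.

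Cytokines of this family bind a chain of their own and then signal through a shared chain, gp130, which Il6st encodes. IL-6 uses the chain from Il6ra, leukaemia inhibitory factor (Lif) that from Lifr, and oncostatin M (Osm) that from Osmr, while IL-11 has a private receptor. Engaged gp130 activates JAK kinases and STAT3, and STAT3 induces Socs3, whose product shuts the receptor down. In pancreatic tumours IL-6 and LIF are known as products of inflammatory fibroblasts that act on carcinoma and immune cells.

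A single library per treatment allows no test and no replicate check of any difference, and treatment and library cannot be told apart. Square brackets hold 95% intervals for counting error only. Kept cells numbered 9558 with 42000538 UMIs (unique molecular identifiers, each 1 captured transcript) in vehicle and 25183 with 119726977 UMIs in takinib, and 359 cell barcodes occurred in both. The libraries also differed in the median mitochondrial share (8.70% against 1.79%), in the sex of the cells (3087 vehicle cells with Y-linked UMIs and no Xist, 0 Y-linked UMIs in takinib) and in cell makeup, with 203 neutrophil-like cells in vehicle and 10752 in takinib. S100a8, S100a9 and 8 other neutrophil marker genes together reached 134 CPM (UMI counts scaled to the total UMIs of a class) in vehicle epithelial-like cells and 9206 CPM in takinib ones, 368 and 27580 CPM in B-like cells, and 480 and 26483 CPM in endothelial-like cells, so neutrophil transcripts moved with treatment in these classes too. Of the vehicle neutrophil-like cells, 104 and 61 sat in clusters led by Siglecf, with the neutrophil markers at 42634 and 34768 CPM, where the name is weak, since the smaller scored 0.235 on neutrophil markers and 0.721 on a mast or basophil list of which fewer than 3 genes were detected in 10% of its cells, and 34 in the cluster led by Cxcr2 and Retnlg (78279 CPM), which takinib shared.

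The sequences before the start sites of Il6, Lif, Il11 and Socs3 are shown because these windows held a motif of a factor downstream of TAK1 or of gp130. The RefSeq promoter table (GRCm38.p6) matched 9 of the 10 genes, all but Osm. Capitals mark matches on either strand to a STAT motif (TTCNNNGAA), a kappa-B motif (GGGA and TTCC with any 2 bases between), an AP-1 motif (TGANTCA) or a C/EBP motif (ATTGC and AAT with any 2 bases between); no 2 of the matches overlap. For Il6 the 250 bases before the start, chr5:30012864-30013113 on the plus strand, lie outside any annotated transcript of the gene:
Il6: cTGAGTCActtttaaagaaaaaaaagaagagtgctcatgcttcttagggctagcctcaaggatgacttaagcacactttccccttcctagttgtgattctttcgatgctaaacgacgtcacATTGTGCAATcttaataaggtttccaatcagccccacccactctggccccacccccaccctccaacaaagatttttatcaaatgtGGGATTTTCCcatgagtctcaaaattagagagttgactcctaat
The short stretches are the surroundings of the other matches, Lif at chr11:4257330-4257356 (plus strand, before the gene), Il11 at chr7:4778223-4778249 (minus strand, before the inner of 2 starts and within an intron of the longer transcript) and Socs3 at chr11:117969502-117969530 (minus strand, within an intron of a longer GENCODE M21 transcript):
Lif AP-1: cagtcagctgTGACTCAggccatagtg
Il11 AP-1: ggagggagggTGAGTCAggatgtgtca
Socs3 STAT: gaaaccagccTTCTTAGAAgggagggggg
Among 32851 promoters of the same length the STAT motif occurred in 7.02%, the kappa-B motif in 1.21%, the AP-1 motif in 6.75% and the C/EBP motif in 0.539%. Il6 alone among the matched genes held kappa-B, AP-1 and C/EBP matches together, beginning 44, 249 and 129 bases before the start, and Socs3 alone held the STAT motif, beginning 154 bases before the start. The bases just after that Socs3 start were found in no GENCODE M21 transcript of the gene, unlike those of the other matched genes. The windows of Il6ra, Il6st, Osmr, Lifr and Stat3 held none of these letters. Osm (chromosome 11, 4236420 to 4241026) and Lif (chromosome 11, 4257557 to 4272514) lie 16.5 kb apart on the same strand, and Osmr and Lifr lie 216 kb apart on chromosome 15.

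Cytokines and receptors were divided between cell classes. In both libraries Osm levels were highest in myeloid cells, Lif levels in fibroblast-like and epithelial-like cells, Il11 levels in fibroblast-like cells (followed in vehicle by epithelial-like cells), and Il6st and Osmr levels in endothelial-like and fibroblast-like cells, joined in vehicle by perivascular-like cells. Stat3 varied least, between 90.0 and 218 CPM over the 9 vehicle classes with at least 50 cells and between 46.9 and 188 CPM over the 12 takinib classes.

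**Figure D1:**
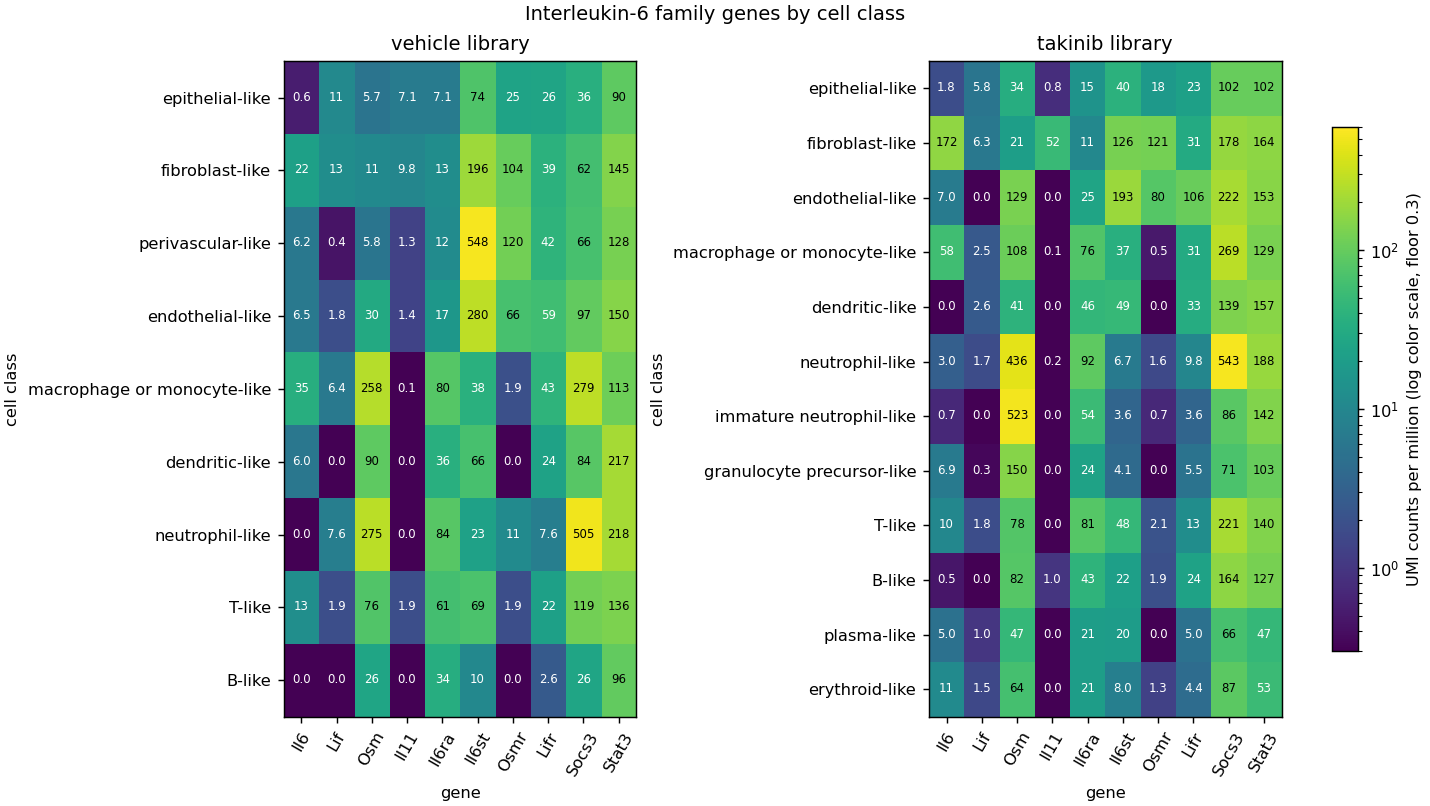
Level of each gene (columns) in each cell class with at least 50 cells (rows), in CPM on a log color scale, vehicle left and takinib right. The printed numbers are the levels; Osm and Socs3 are high in neutrophil-like and macrophage- or monocyte-like rows, Il6st and Osmr in endothelial- and fibroblast-like rows and the vehicle perivascular-like row.

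Comparison was limited to the 7 classes holding 100 or more cells per library. A gene entered with 20 counts over both libraries and was called when log2((takinib CPM + 10)/(vehicle CPM + 10)) passed 1 in either direction. Of 70 gene and class pairs 58 entered; 10 were called higher in takinib and 1 lower. In fibroblast-like cells 3 of 10 genes were higher (Il6, Il11 and Socs3), against 5.17% of all genes entering that were higher and 6.85% that were lower. In epithelial-like cells 2 of 10 were higher (Osm and Socs3; 1.83% of all genes higher and 1.56% lower), in endothelial-like cells 2 of 7 (the same pair; 3.77% and 4.26%) and in B-like cells 3 of 6 (Osm, Lifr and Socs3; 7.31% and 2.78%). In macrophage- or monocyte-like cells 1 of 9 was lower (Osm; 0.927% of all genes lower and 1.58% higher). None of 7 was called in T-like cells, where 3.38% of genes were higher and 1.63% lower, and none of 9 in neutrophil-like cells, where 3.75% were higher and 14.4% lower.

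**Figure D2:**
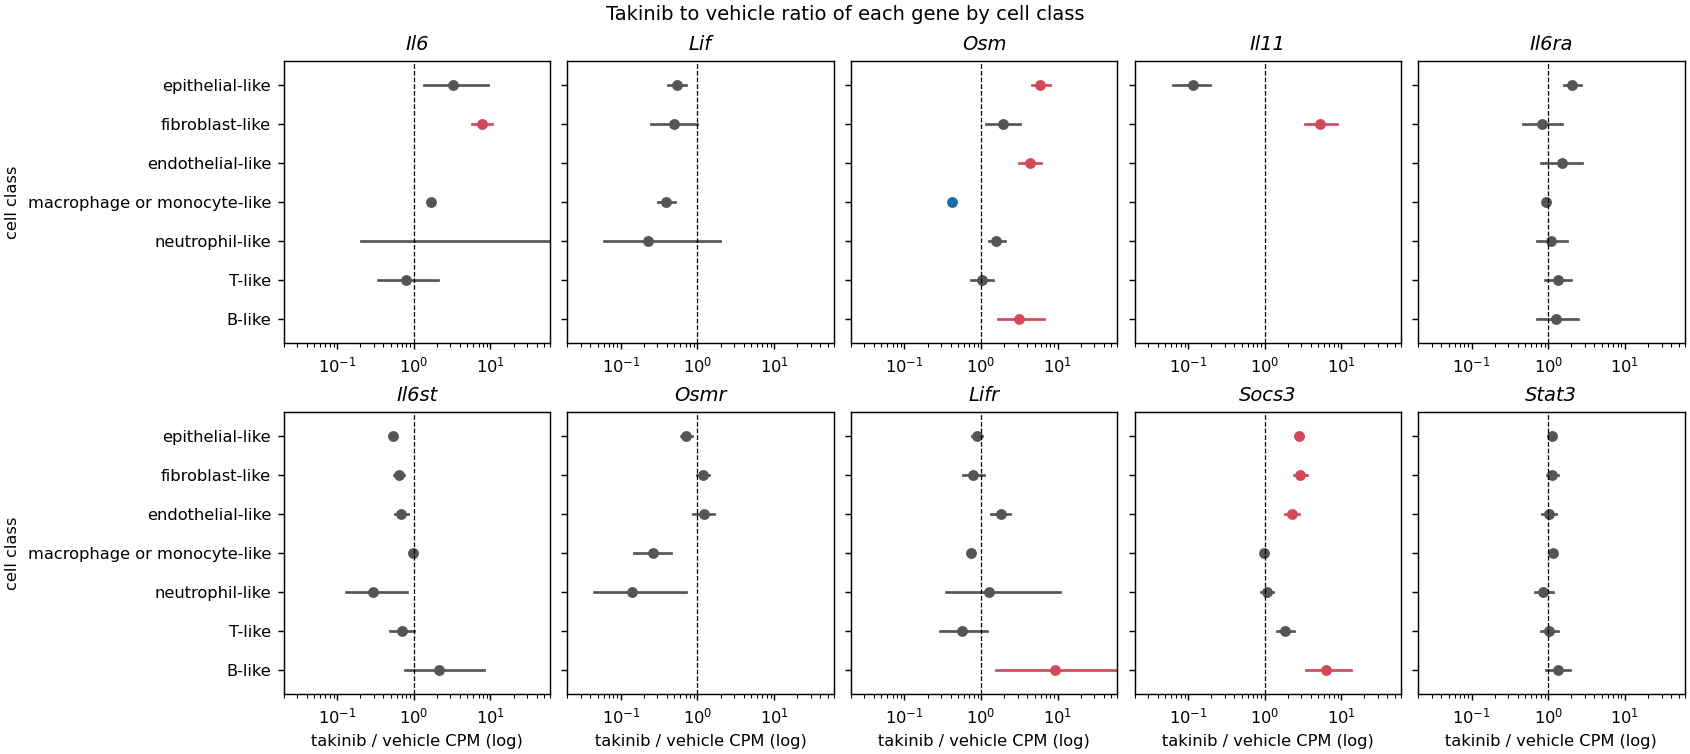
Ratio of takinib to vehicle CPM (log axis) for each gene in each of the 7 classes where it entered; points are ratios, lines 95% counting intervals, clipped at the panel edge, red marks higher and blue lower past the fold, and the dashed line marks a ratio of 1. Osm is the gene with calls in both directions, and the Socs3 points lie to the right of 1 in 6 of 7 classes.

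Il6 (chromosome 5, 30013114 to 30019981) encodes the founding cytokine of the family. In vehicle its level was 34.9 CPM [32.3, 37.5] in macrophage- or monocyte-like cells, which held 84.3% of its UMIs, and 22.4 CPM [16.5, 29.7] in fibroblast-like cells. T-like cells followed with 13 CPM [5.23, 26.8], a level whose interval overlapped that of fibroblast-like cells, and no Il6 UMI was counted in 204 B-like or 203 neutrophil-like cells. In takinib the fibroblast-like level was 172 CPM [156, 190] and the macrophage- or monocyte-like level 58.5 CPM [56.3, 60.7]. The ratio of takinib to vehicle was 7.70 [5.70, 10.6] in fibroblast-like cells and 1.68 [1.54, 1.82] in macrophage- or monocyte-like cells, where it did not reach the fold. With cells thinned to 1000 UMIs the fibroblast-like log2 ratio was 0.95, within the fold (18.1 and 44.2 CPM), 1.4% [0.627, 2.83] and 3.31% [1.23, 7.08] of these cells held an Il6 UMI, and macrophage- or monocyte-like cells had the highest takinib level. Thinned to 1000 UMIs per cell, 2.74% of vehicle and 4.03% of takinib macrophage- or monocyte-like cells held an Il6 UMI, against 0.0618% and 0.169% of epithelial-like cells, taken as a class without the gene; unthinned the shares were 8.57% and 13.2%, against 0.371% and 1.19% of epithelial-like cells, whose median depths were 4953 and 9576 UMIs beside 3882 and 5855.

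The fibroblast-like difference in Il6 rested on 1 cluster. A cluster of 79 takinib cells led by Serpinb2, an inhibitor of plasminogen activators, and Timp1, an inhibitor of matrix proteases, held 409 of the 410 Il6 UMIs of takinib fibroblast-like cells, at 224 CPM [203, 247]. Its Il6 UMIs lay in 38 cells, with at most 50 in 1 cell. These cells were deep, with a median of 23094 UMIs (3333 to 65259), and their median doublet score was 0.107 against 0.0505 in the takinib library. They carried the fibroblast genes Col1a1 at 5285 CPM and Dcn at 3647 CPM together with Msln, a mesothelial gene, at 110 CPM, and Mmp3, a matrix protease, at 618 CPM. Against takinib cells of the Dpt cluster, Lum (81.2 against 1252 CPM) and Mmp2 (196 against 1028) were lower and Pdpn (350 against 234) higher. The mesothelial markers Upk3b and Nkain4 were at 18.7 and 37.9 CPM, against 130 and 293 CPM in takinib cells led by Calca. The Serpinb2 cluster scored 0.29 on fibroblast and 0.175 on mesothelial markers, the lowest fibroblast score of any fibroblast cluster, so its name is weak. Without the Serpinb2 and Timp1 cluster 551 vehicle and 102 takinib fibroblast-like cells remained, and the direction turned: Il6 went from 22.5 CPM [16.6, 29.8] to 1.80 CPM [0.0456, 10.0] in takinib, where a single UMI was left. The makeup of the remainder differed: the clusters led by Igfbp3 and by Penk held 245 and 107 vehicle cells but 12 and 15 takinib cells. Among vehicle fibroblast clusters Il6 was 26.1 CPM in the cluster led by Igfbp3 and Col12a1, 14.1 CPM in that led by Penk and Sfrp1 and 31.5 CPM in that led by Dpt and Clec3b, with overlapping intervals, and that led by Cilp and H19 held no Il6 UMI in 85 cells. An unnamed cluster with mesothelial markers, led by Calca and Mgp, went from 10.5 CPM [3.87, 23.0] to 27.6 CPM [18.5, 39.7].

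Macrophage clusters also differed in Il6. The takinib cluster led by Saa3, Ptges and Pf4 (2822 cells), which had almost no vehicle counterpart, held 49.8% of all takinib Il6 UMIs at 91.1 CPM [86.9, 95.5], with a UMI in 17.6% of its cells. In the 9 macrophage or monocyte clusters that held 20 or more cells from both libraries, Il6 was lower in takinib in 5 and higher in 4, and the ratio interval lay below 1 in 1 and above 1 in 3. The cluster led by Gpnmb and Ctsk went from 52.0 to 30.1 CPM (ratio 0.578 [0.478, 0.703]). The cluster led by Ms4a4c, Vcan and Ccr2, genes of classical monocytes, had 1 UMI in 83 vehicle cells (4.68 CPM) and 166 in 705 takinib cells (49.7 CPM). The higher level of the whole class was not shared by each cluster.

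Il11 (chromosome 7, 4772373 to 4782859) encodes a cytokine linked to fibrosis. In vehicle it was counted in fibroblast-like cells at 9.79 CPM [6.06, 15] and epithelial-like cells at 7.15 CPM [5.64, 8.93], intervals that overlap, and these classes held 19.3% and 70.6% of its UMIs. In takinib the epithelial-like level was 0.819 CPM [0.477, 1.31], from 17 UMIs against 77 in vehicle, a ratio of 0.115 [0.0635, 0.196]. The log2 ratio with 10 CPM added was -0.66, short of the fold, since that scale understates changes of low genes. The epithelial counts came from the cluster led by Hmga2, which encodes a chromatin protein, and Cdkn2a, where Il11 was 10.2 CPM [7.98, 12.8] in 1108 vehicle cells and 1.32 CPM [0.703, 2.26] in 749 takinib cells. The cluster led by the gastric genes Gkn3, Dmbt1 and Tff2 had 4 UMIs in each library.

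In fibroblast-like cells Il11 went the other way, from 9.79 to 51.7 CPM [43.0, 61.7], a ratio of 5.28 [3.31, 8.84]. Of the 123 takinib UMIs 121 came from the cluster led by Serpinb2 and Timp1, and 77 of them from 1 cell. In that cluster 12 cells held Il11, of which 8 also held Il6. Without the cluster Il11 went from 9.84 CPM to 3.60 CPM [0.436, 13] in takinib, from 2 UMIs. Over all kept cells Il11 went from 2.6 to 1.29 CPM.

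Lif (leukaemia inhibitory factor) was highest in fibroblast-like and epithelial-like cells of both libraries, and these neighbours in the order did not differ beyond counting error. Vehicle levels were 12.6 CPM [8.30, 18.3] and 10.8 CPM [8.90, 12.9], and takinib levels 6.31 CPM [3.53, 10.4] and 5.83 CPM [4.84, 6.97]. All 4 classes in which Lif entered had less in takinib. The ratio was 0.542 [0.416, 0.705] in epithelial-like cells, 0.501 [0.248, 0.976] in fibroblast-like cells and 0.392 [0.303, 0.506] in macrophage- or monocyte-like cells (6.43 to 2.52 CPM), with none past the fold. In neutrophil-like cells the interval included 1. Without the Serpinb2 and Timp1 cluster the fibroblast-like ratio was 0.285 [0.0328, 1.13], from 2 takinib UMIs, and its interval also included 1. The Hmga2 and Cdkn2a cluster held most of the epithelial Lif, at 15.5 CPM [12.7, 18.6] in vehicle and 9.14 CPM [7.35, 11.2] in takinib, while in the Gkn3 cluster Lif was 1.48 and 3.02 CPM with overlapping intervals.

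**Figure D3:**
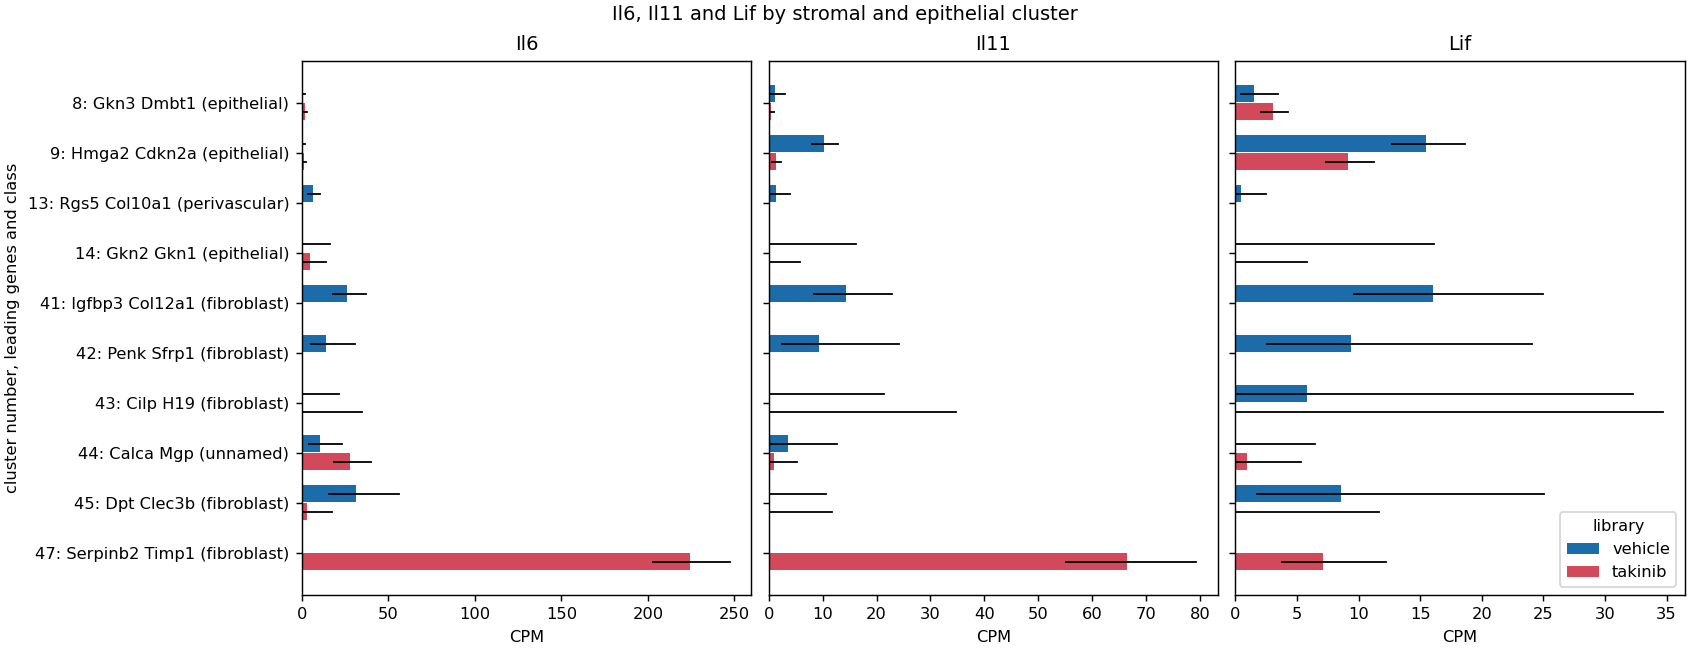
Il6, Il11 and Lif levels (CPM; each panel has its own axis) in epithelial, perivascular and fibroblast clusters and the unnamed cluster 44, which carries mesothelial markers; bars are levels, lines 95% Poisson intervals, blue vehicle, red takinib, for clusters with at least 20 cells of the library. The red bars of cluster 47, at 224 and 66.4 CPM, stand apart for Il6 and Il11, and cluster 9 holds the epithelial Il11 and Lif.

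Osm, the gene of oncostatin M, which macrophages and neutrophils are known to release and which acts on stromal cells, was at 258 CPM [251, 265] in vehicle macrophage- or monocyte-like cells and 108 CPM [106, 111] in takinib ones. The ratio was 0.420 [0.404, 0.437]. These cells held 89.5% of the vehicle Osm UMIs and 24.7% of the takinib ones, while neutrophil-like cells held 1.23% and 53.6%. In neutrophil-like cells the level went from 275 CPM [215, 347] to 436 CPM [428, 444], a ratio of 1.58 [1.26, 2.02]. Over all kept cells Osm went from 139 to 175 CPM, the opposite direction to the macrophage- or monocyte-like level.

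The lower macrophage level of Osm recurred across clusters, with an exception. Of the same 9 clusters, 8 had less Osm in takinib and in all 8 the ratio interval lay below 1. The cluster led by Alox15 and Trf went from 280 CPM [268, 293] to 128 CPM [117, 141], the Gpnmb and Ctsk cluster from 212 CPM [195, 229] to 84.7 CPM [80.1, 89.4], and the cluster led by Ccl8, Cbr2 and Cd163, genes of resident macrophages, from 102 CPM [72.1, 141] to 38.0 CPM [31.5, 45.5]. A cluster led by the fusion gene Dcstamp and by Cd74 had the highest vehicle level, 411 CPM [389, 435], and 169 CPM [130, 216] in 48 takinib cells. The exception was the monocyte cluster led by Ms4a4c and Vcan, at 126 CPM [83.3, 184] in vehicle and 211 CPM [196, 228] in takinib, a ratio of 1.67 [1.14, 2.56]. The 10 neutrophil markers in that cluster went from 4818 to 16162 CPM, and their part in its Osm level was not tested.

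Within the neutrophil lineage of takinib Osm ranged widely between named clusters. It was highest in the cluster led by Retnlg and Ly6g, at 1131 CPM [1051, 1217] with a UMI in 86.8% of 204 cells, followed by the Cxcr2 and Retnlg cluster at 747 CPM [723, 772] and the immature cluster led by Ltf and Ngp at 632 CPM [581, 685]. Cells led by the chemokine genes Ccl3 and Ccl4 were at 371 CPM [358, 384], granulocyte precursors led by Elane and Mpo at 150 CPM [137, 165], and the cluster led by Lst1 at 81.9 CPM [68.2, 97.6]. In the Cxcr2 and Retnlg cluster, which both libraries shared, the 34 vehicle cells had 1035 CPM [752, 1390] and takinib was lower, with a ratio of 0.722 [0.536, 0.995]. The vehicle clusters led by Siglecf had 122 CPM [71.3, 196] and 107 CPM [46.1, 211]. The class was thus made of different clusters in the libraries.

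**Figure D4:**
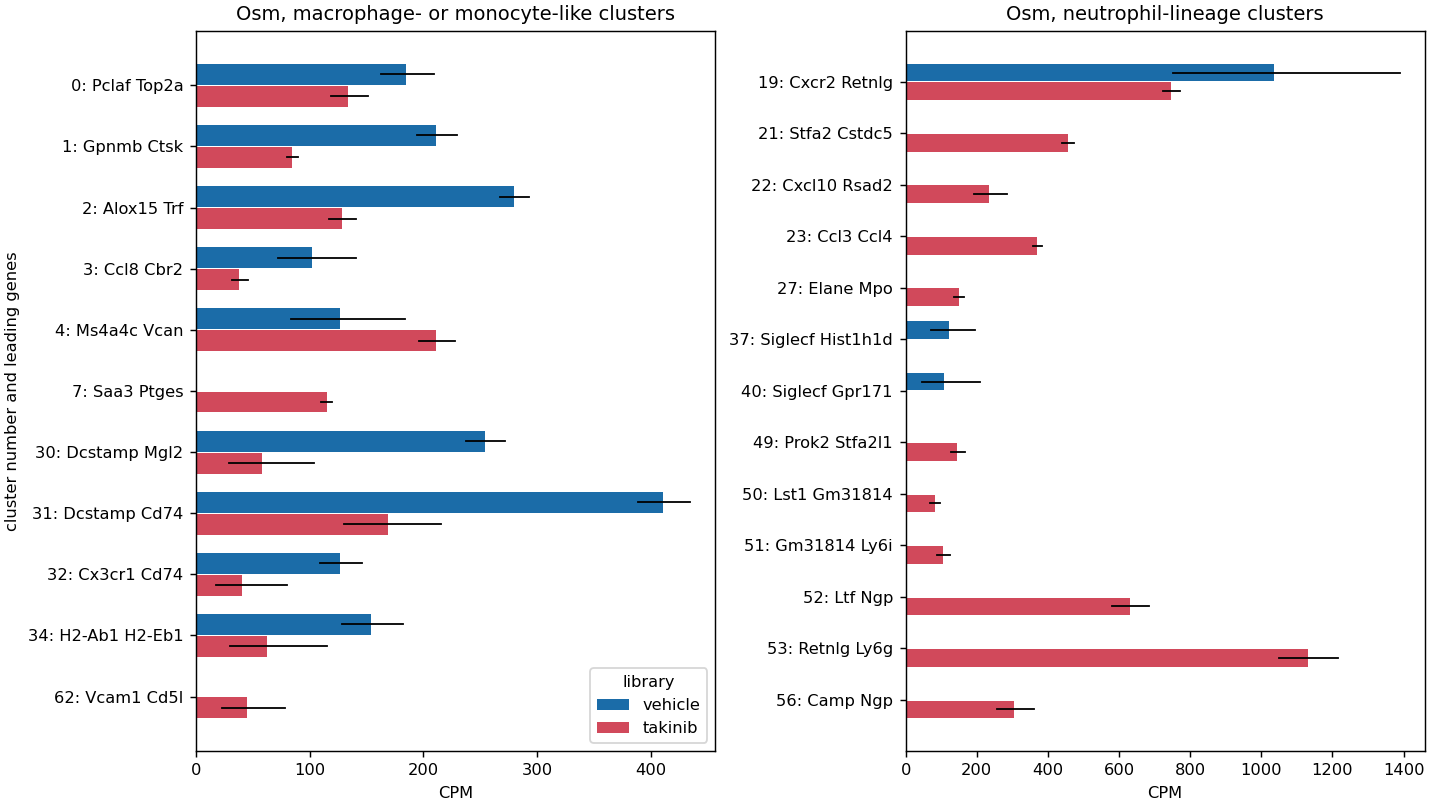
Osm level (CPM) by cluster, macrophage- or monocyte-like clusters left and neutrophil-lineage clusters right; bars are levels, lines 95% Poisson intervals, blue vehicle, red takinib, for clusters with at least 20 cells of the library. Blue exceeds red in every left-hand pair except that of cluster 4 (126 and 211 CPM), and the right-hand clusters span 81.9 to 1131 CPM.

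Classes that make little Osm did not all move alike. T-like cells did not differ beyond counting error (76.2 CPM in vehicle and 77.5 CPM in takinib). Dendritic-like cells, with fewer than the 100 cells per library set for comparison, went from 90.4 to 41.2 CPM. In epithelial-like, endothelial-like and B-like cells takinib held more Osm. Epithelial-like cells went from 5.66 CPM [4.33, 7.27] to 33.7 CPM [31.3, 36.3], endothelial-like cells from 30.1 CPM [23.2, 38.3] to 129 CPM [104, 159] and B-like cells from 25.9 CPM [12.4, 47.7] to 81.7 CPM [69.9, 94.9]. Thinned to 1000 UMIs, an Osm UMI was held by 0.741% of epithelial-like cells in vehicle and 4.46% in takinib, against 16.4% and 9.89% of macrophage- or monocyte-like cells; unthinned these shares were 2.47% and 16.1%, and 36.4% and 31.8%. Each library's neutrophil-like profile was then subtracted from each class in proportion to S100a8 and S100a9. Osm turned to a log2 ratio of -0.18 in epithelial-like cells and -1.77 in B-like cells, where more was subtracted than the takinib class held and the level was set to 0. It was -1.59 in T-like and -1.03 in fibroblast-like cells, stayed positive but within the fold in endothelial-like cells at 0.74, and remained lower in macrophage- or monocyte-like cells at -1.50. In the B cluster led by Cd79a and Cd79b, which held 203 of the 204 vehicle B-like cells, Osm went from 26.1 to 11.9 CPM with overlapping intervals. Takinib B-like cells had 2 further clusters with Osm at 195 and 124 CPM, in which the neutrophil markers were at 54900 and 57839 CPM. In vehicle barcodes of 1 to 100 UMIs, taken as droplets without a cell, Osm stood at 79.7 CPM [59.5, 105]; the takinib matrix begins at 500 UMIs and allows no such value.

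**Figure D5:**
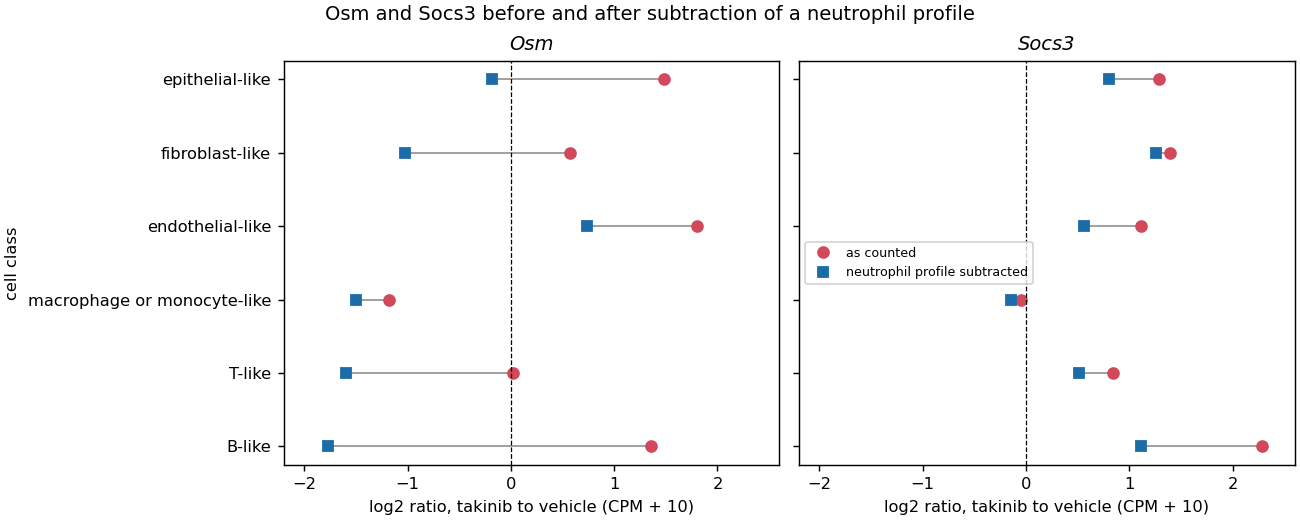
Log2 ratio of takinib to vehicle (CPM + 10) of Osm and Socs3 in 6 classes as counted (red circles) and after subtraction of each library's neutrophil profile (blue squares); the dashed line marks no difference. Osm moves from above to below 0 in epithelial-, fibroblast-, T- and B-like cells, while the Socs3 squares stay above 0 in each class except the macrophage- or monocyte-like.

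Il6st, which encodes the shared chain gp130, was highest in perivascular-like cells of vehicle at 548 CPM [518, 579], then in endothelial-like cells at 280 CPM [258, 303] and fibroblast-like cells at 196 CPM [178, 216], each apart from the next beyond counting error. There were 592 perivascular-like cells in vehicle but 14 in takinib, too few to compare. Over all kept cells Il6st was the only one of the 10 genes called, from 97.1 to 31.9 CPM (log2 ratio -1.36, with 2.98% of genes lower and 2.29% higher); fewer cells of a class and less RNA per cell cannot be told apart in that sum. Within classes it was lower in takinib in 6 of 7, but in none past the fold. The ratio was 0.537 [0.487, 0.593] in epithelial-like cells (73.7 to 39.6 CPM), 0.643 [0.552, 0.747] in fibroblast-like cells, 0.688 [0.567, 0.830] in endothelial-like cells and 0.967 [0.887, 1.05] in macrophage- or monocyte-like cells. The fibroblast-like difference lay in the Serpinb2 and Timp1 cluster, at 92.7 CPM: without it Il6st went from 195 to 236 CPM, a ratio of 1.21 [0.987, 1.48]. Within the shared Cilp and Dpt fibroblast clusters the Il6st ratios were 0.975 [0.614, 1.53] and 1.02 [0.743, 1.39]. In neutrophil-like cells Il6st went from 22.9 to 6.67 CPM, the lowest ratio of the 7 classes (0.291 [0.131, 0.803], from 6 vehicle UMIs), and B-like cells were the class with more in takinib (ratio 2.12 [0.774, 8.11]).

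Osmr, the oncostatin M receptor chain, was highest in stromal and endothelial classes. In vehicle it was 120 CPM [106, 135] in perivascular-like, 104 CPM [90.4, 118] in fibroblast-like, 66.1 CPM [55.7, 77.9] in endothelial-like and 25.0 CPM [22.1, 28.1] in epithelial-like cells, but 1.93 CPM [1.37, 2.64] in macrophage- or monocyte-like cells. In takinib the fibroblast-like level was 121 CPM [108, 136] and the macrophage- or monocyte-like level 0.504 CPM [0.323, 0.750]. Ratios were 1.17 [0.979, 1.40] in fibroblast-like and 1.21 [0.876, 1.66] in endothelial-like cells, intervals that include 1, and 0.714 [0.609, 0.839] in epithelial-like cells. Without the Serpinb2 and Timp1 cluster the fibroblast-like ratio was 1.36 [1.04, 1.77].

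Lifr, the chain for LIF, was highest in endothelial-like cells, at 58.7 CPM [49.0, 69.9] in vehicle and 106 CPM [83.0, 132] in takinib, a ratio of 1.80 [1.33, 2.41]. In macrophage- or monocyte-like cells it went from 42.6 to 31.4 CPM (0.737 [0.677, 0.802]). Of the 9 macrophage or monocyte clusters shared by the libraries, 4 had less Lifr in takinib and 5 more. The ratio interval lay below 1 in 1 cluster and above 1 in 0. The B-like call rested on 1 vehicle UMI against 50 in takinib (2.59 and 23.9 CPM, ratio 9.22 [1.58, 371]). In fibroblast-like cells Lifr was 39.2 and 31.1 CPM, but without the Serpinb2 and Timp1 cluster 39.3 and 84.6 CPM (ratio 2.15 [1.47, 3.11]). That remainder was made of different clusters in the libraries. Within the shared Cilp and Dpt clusters the Lifr ratios were 1.81 [0.660, 5.02] and 1.44 [0.771, 2.71], intervals that include 1.

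Il6ra, the IL-6-binding chain, followed the immune classes. In vehicle it was 84.1 CPM [52.7, 127] in neutrophil-like, 80.5 CPM [76.6, 84.5] in macrophage- or monocyte-like and 61.3 CPM [42.2, 86.1] in T-like cells, with overlapping intervals, and 7.15 CPM [5.64, 8.93] in epithelial-like cells. Takinib levels in the same classes were 91.7, 75.8, 80.8 and 14.7 CPM. The epithelial-like ratio of 2.06 [1.60, 2.68] was the only one of the 7 whose interval lay above 1, and it came with the neutrophil markers described above; after subtraction of the neutrophil profile the epithelial-like levels were 6.96 and 8.91 CPM.

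Socs3, which STAT3 induces and which blocks gp130 signalling, was highest in neutrophil-like cells, at 505 CPM [422, 599] in vehicle and 543 CPM [535, 553] in takinib, and next in macrophage- or monocyte-like cells, at 279 CPM [271, 286] and 269 CPM [265, 274]. In the Cxcr2 and Retnlg cluster, the neutrophil cluster shared by the libraries, Socs3 went from 376 CPM [215, 611] to 735 CPM [711, 760], a ratio of 1.95 [1.20, 3.42]. Takinib cells held more Socs3 in each of the other 5 classes. Fibroblast-like cells went from 61.6 CPM [51.5, 73.0] to 178 CPM [162, 196], epithelial-like cells from 35.7 CPM [32.3, 39.5] to 102 CPM [97.4, 106], endothelial-like cells from 97.1 CPM [84.4, 111] to 222 CPM [189, 260] and B-like cells from 25.9 CPM [12.4, 47.7] to 164 CPM [148, 183]. T-like cells went from 119 CPM [91.6, 152] to 221 CPM [206, 238], a ratio of 1.86 [1.44, 2.44] short of the fold. None of these intervals overlapped between the libraries.

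Unlike Osm, Socs3 kept its direction in those 5 classes after subtraction of the neutrophil profile, with log2 ratios of 1.26 in fibroblast-like, 1.11 in B-like, 0.81 in epithelial-like, 0.56 in endothelial-like and 0.52 in T-like cells, the last 3 within the fold. In the fibroblast-like class it went from 61.8 CPM to 153 CPM [122, 189] without the Serpinb2 and Timp1 cluster. In the main B cluster it was 26.1 and 67.7 CPM (ratio 2.6 [1.34, 5.62]). All 3 epithelial clusters had more Socs3 in takinib with ratio intervals above 1, from 28.8 to 87.8 CPM in the Gkn3 cluster and from 38.9 to 112 CPM in the Hmga2 cluster. The share of epithelial-like cells with a Socs3 UMI was 3.71% and 10.2% after thinning to 1000 UMIs and 17.2% and 47.3% before, while the fibroblast-like log2 ratio dropped to 0.65. Thinned endothelial-like shares were 9.48% [7.44, 11.9] and 13.6% [7.63, 21.8], intervals that overlap. The endothelial-like call held in 11 of 15 settings, with a lowest log2 ratio of 0.55 for vehicle cells of female origin. Among macrophage or monocyte clusters the widest difference was in the Ms4a4c and Vcan monocytes, from 206 to 517 CPM, and the Gpnmb cluster went from 182 to 133 CPM.

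Stat3, the transcription factor itself, differed little. Its ratios ran from 0.861 to 1.33 over the 7 classes and none was called. Intervals lay above 1 in 2 classes, epithelial-like cells (1.13 [1.05, 1.22]) and macrophage- or monocyte-like cells (1.15 [1.09, 1.20]).

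The wider pathway was read from 4 lists, described by counts past the fold and not tested. Of 20 genes known as STAT3 targets, 10 of 19 entering were higher and 1 lower in B-like cells, 9 of 20 and 0 in T-like, 8 of 18 and 1 in endothelial-like, 7 of 20 and 0 in epithelial-like, 10 of 18 and 1 in fibroblast-like, 4 of 20 and 0 in macrophage- or monocyte-like and 5 of 20 and 2 in neutrophil-like cells. Over all genes entering, the shares higher and lower were 7.31% and 2.78% in B-like, 3.38% and 1.63% in T-like, 3.77% and 4.26% in endothelial-like, 1.83% and 1.56% in epithelial-like, 5.17% and 6.85% in fibroblast-like, 1.58% and 0.927% in macrophage- or monocyte-like and 3.75% and 14.4% in neutrophil-like cells. With the neutrophil profile subtracted, the targets higher and lower were 7 and 2 in B-like, 6 and 0 in T-like and 4 and 2 in endothelial-like cells. They were 5 and 0 in epithelial-like, 7 and 1 in fibroblast-like and 4 and 1 in macrophage- or monocyte-like cells. No share over all genes is given for these later counts. The list's median log2 ratio was 1.11 in fibroblast-like cells, beside -0.13 over all genes entering, and 0.16 in macrophage- or monocyte-like cells, beside -0.02. The fibroblast-like count and median include the Serpinb2 and Timp1 cluster, and several calls rested on it. Without it the log2 ratio went from 1.91 to -0.99 for Timp1, from 1.37 to 0.06 for Il4ra and from 1.31 to -0.15 for Hif1a. That of Cebpb went from 1.06 to 0.58. Saa3 (4.62), Lcn2 (4.29), Hp (2.51), Lrg1 (2.27), Myc (1.34) and Junb (1.06) stayed past the fold. Genes in this comparison were named after their values were seen. The acute-phase genes Saa3, Lcn2 and Hp were higher past the fold in all 7 classes. Saa3 went from 298 to 10482 CPM in fibroblast-like and from 458 to 26106 CPM in macrophage- or monocyte-like cells, and was itself at 17292 CPM in takinib neutrophil-like cells. After subtraction of the neutrophil profile these 3 genes stayed higher past the fold in each of the 6 other classes. That step removes neutrophil transcripts only. No macrophage profile was subtracted, and the part of macrophage transcripts in the other classes was not tested. Pim1, a kinase gene induced by STAT3, went from 30.7 to 145 CPM in the epithelial-like class and stood at a log2 ratio of 0.99 after subtraction.

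Among other cytokine genes of the family, Clcf1, whose product acts through gp130 and the LIF receptor chain, went from 86.3 to 30.4 CPM in epithelial-like cells, a ratio of 0.352 [0.318, 0.390]. Ebi3, a subunit of IL-27, was higher in B-like (15.6 to 56.4 CPM), epithelial-like (1.21 to 13.4 CPM) and neutrophil-like cells (68.8 to 170 CPM), and after subtraction in neither of the first 2. Among the inhibitors, Socs2 was lower in epithelial-like cells (97.8 to 32.7 CPM), Cish (218 to 70.3 CPM) and Socs1 (80.3 to 26.0 CPM) were lower in neutrophil-like cells, and Socs1 was higher in T-like cells (20.4 to 58.7 CPM). Of the kinases and partners, Jak2 was higher in B-like (46.7 to 107 CPM) and fibroblast-like cells (42.0 to 100 CPM), but within the fold in B-like cells after subtraction (log2 ratio 0.83) and in fibroblast-like cells without the Serpinb2 and Timp1 cluster (0.65), and Tyk2 was lower in neutrophil-like cells (45.9 to 11 CPM).

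Likeness to other genes was described by Pearson's r of log2(CPM + 10) over 21 sums of a class in a library, which share library and depth. Osmr was most like Fermt2 (0.986), Fkbp10 and Rhoj, genes of mesenchymal and endothelial cells, and Osm was most like Nfam1 (0.936), Mcemp1 and Pygl. Il11 was most like Lypd1 (0.985), Tmeff2 and Gjb5, and Il6 most like Prg4 (0.926), Slc36a2 and Ccl7. For both the highest sum was that of takinib fibroblast-like cells (51.7 and 172 CPM), which rested on the Serpinb2 and Timp1 cluster. The weight of that sum in these r values was not tested. Socs3 was most like the immediate-early and stress genes Per1 (0.919), Dusp1 and Cdkn1a. Lif was most like Slc46a1 (0.896), Il6ra Pnpla7 (0.935), Il6st Klc1 (0.942), Lifr Pea15a (0.900) and Stat3 Gnai3 (0.824). Within the set, Il6st had r of 0.830 with Osmr and 0.826 with Lifr, and Osm had r of 0.784 with Il6ra and -0.617 with Il6st.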

How the data were processed

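Both single-cell matrices, vehicle and takinib, were used in counts of UMIs per gene and cell barcode. The authors deposited raw counts: per the file headers they came from Cell Ranger 4 (vehicle, all 704261 barcodes) and 6.1.1 (takinib, 34158 barcodes, the shallowest with 500 UMIs), while the submitters' processing notes name Cell Ranger 2.1.1, STAR 2.0.4b, Subread, featureCounts 1.45, bcl2fastq and mm10. The libraries thus differed in software and barcode filtering.

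Cells with at least 1000 UMIs, 500 genes and at most 20% mitochondrial counts were kept. Doublets were removed at the automatic threshold in vehicle (314) and, where that threshold marked too few, as the top 6% of scores in takinib (1607). Cells of the pair of libraries were clustered jointly in scanpy 1.11.5 and igraph 0.11.9 (2000 variable genes, 30 components, 15 neighbours, resolution 1, and 0.5 within divided clusters). A cluster was named from marker lists when 3 markers were each in 10% of its cells; this naming rule was revised after the clusters were seen, in 4 versions, before the values of the 10 genes were read. Counts were summed by class and library and given as CPM. Levels carry exact Poisson and ratios exact conditional binomial 95% intervals; shares were also taken with cells thinned to 1000 UMIs. The summing and calling steps were tested on simulated data. The genes, the 4 wider lists and the markers were chosen with earlier results of these data known. Named genes were the 10 members, up to 4 genes per list and class past the fold, and the 3 genes most alike; other genes named are leaders or markers of clusters. No column outside the map was used (0). A result on a withheld item is not reported here.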

Additional observations from a re-analysis of the deposited data

Results flagged for a closer look

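Osm differed in direction between classes. Its log2 ratio of takinib to vehicle was 1.35 in B-like, 1.80 in endothelial-like and 1.48 in epithelial-like cells but -1.18 in macrophage- or monocyte-like cells. After subtraction of the neutrophil profile the values in the same order were -1.77, 0.74, -0.18 and -1.50, so only the endothelial-like value stayed positive. The difference between classes was not tested, since each treatment has 1 library.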

How the results depend on the processing

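No paired analysis was possible because each treatment has 1 library. Over 25 settings, 760 of 1007 values moved within their limits, 237 moved further and 10 were counted as turned in direction. Those 10 were all of called pairs, and sign changes of pairs within the fold are not among them. Such changes were Osm in T-like (0.02 to -1.59) and fibroblast-like cells (0.57 to -1.03) after subtraction. Others were fibroblast-like Lifr (-0.26 to 0.94) and Il6st (-0.60 to 0.26) without the Serpinb2 cluster. Over all kept cells the count of called genes, 1 as reported, was 2 with cells thinned to 1000 UMIs, 3 with vehicle cells of female origin only and 3 with 1 CPM added; within classes the count, 11 as reported, was 18 with 1 CPM added. That count has no value with a minimum of 2000 UMIs (6 of 7 classes left), with vehicle cells of female origin (5 of 7) or after subtraction of the neutrophil profile. The fibroblast-like log2 ratio of Il6 was -1.49 with the top 6% of doublet scores removed in both libraries, -1.45 at resolution 2 and -1.46 without the Serpinb2 cluster, and that of Il11 was -0.60, -0.54 and -0.54; the number of takinib fibroblast-like cells was 102 in each of these. Osm was -1.77 in B-like and -0.18 in epithelial-like cells after subtraction of the neutrophil profile, -0.72 in the Cd79a and Cd79b cluster and 0.70 in the Ms4a4c and Vcan cluster. Leaving out the Serpinb2 cluster and the values within single clusters were chosen after seeing the data. Depth limits Il6, Il11 and Lif, and any gene in the 203 vehicle neutrophil-like and 204 vehicle B-like cells.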
